A study of Rattus norvegicus with 6 samples.

Results

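The genes described here make cholesterol from acetyl-CoA and sense its level: Hmgcs1, Idi1, Fdps, Fdft1, Sqle, Cyp51, Dhcr7 and Insig1. The members were all probe sets that the platform annotation assigns to 1 of these 8 genes alone. The rule gave 10 probe sets for 7 of the 8 genes, of 31042 probe sets tested, and Idi1, Fdft1 and Cyp51 had 2 probe sets each. Hmgcs1 is not analysed here beyond its promoter. The tissue was the left ventricle of male Wistar rats that entered the study at 6 weeks of age, ate their diet for 12 weeks and were 18 weeks old at collection, after a night without food. The Western plus DHA rats ate a Western diet with docosahexaenoic acid, a long-chain fatty acid of fish oil, the Western rats ate the Western diet without it, and the Control rats ate a control diet. There were 10 rats and 2 arrays per diet, with 1 pool of RNA from 5 rats on each array, so a replicate is a pool and the number of arrays limits the precision. The labels do not say what the diets were made of. The values are log2 expression values that the authors made with RMA, a method that sets all arrays to a common distribution.

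Cells build cholesterol through the mevalonate pathway, whose enzymes turn acetyl-CoA into isoprenoid units, join these into squalene and close and trim the rings of lanosterol. Most of these enzymes are targets of SREBP2, a transcription factor anchored in the endoplasmic reticulum. When membrane sterols are plentiful, INSIG proteins hold SREBP2 and its escort SCAP in the endoplasmic reticulum, and when they are scarce, SREBP2 is carried to the Golgi, cut and sent to the nucleus. INSIG1 is itself a target of SREBP2, and oxysterols and polyunsaturated fatty acids are known to lower the activity of SREBP proteins in other cells.

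The left ventricular label was set against marker genes of heart muscle cells. The 7 measured of 8 listed markers had mean log2 values of at least 12.5, against a median of 5.34 over all probe sets. The 2 arrays of a diet correlated across probe sets with r of 0.993 in Western plus DHA, 0.996 in Western and 0.993 in Control, where probe sets are not independent replicates. Array medians lay between 5.33 and 5.36. The control probe sets for GAPDH read 0.68 higher at the 3′ end than at the 5′ end on Control 1 and 0.30 to 0.47 higher on the other 5 arrays. The same difference for actin was 1.87 on Western plus DHA 1 and 1.82 on Control 1, against 1.48 to 1.54 elsewhere.

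Promoter windows of 6 of the 8 listed genes were matched by symbol in the RefSeq table of assembly GRCr8, each from 250 bases before to 50 bases after the annotated gene start. The windows of Insig1, Idi1 and Fdps are shown because Insig1 and the brighter Idi1 probe set gave the clearest separations between diets below and Fdps gave none. Capitals mark matches, on either strand, to the sterol regulatory element core (CACNCCAC), the NF-Y box (CCAAT) and the Sp1 box (GGGCGG), which are known elements of SREBP targets. All 3 windows lie on the minus strand, at chr4:8057720-8058019 for Insig1, chr17:66547475-66547774 for Idi1 and chr2:176804767-176805066 for Fdps, and are printed 5′ to 3′ along the gene.
Insig1: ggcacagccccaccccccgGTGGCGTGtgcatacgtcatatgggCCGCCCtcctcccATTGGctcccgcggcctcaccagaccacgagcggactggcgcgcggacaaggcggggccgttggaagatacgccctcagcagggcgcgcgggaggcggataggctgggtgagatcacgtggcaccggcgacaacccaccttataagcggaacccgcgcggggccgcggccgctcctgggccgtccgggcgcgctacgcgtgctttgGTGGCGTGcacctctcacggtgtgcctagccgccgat
Idi1: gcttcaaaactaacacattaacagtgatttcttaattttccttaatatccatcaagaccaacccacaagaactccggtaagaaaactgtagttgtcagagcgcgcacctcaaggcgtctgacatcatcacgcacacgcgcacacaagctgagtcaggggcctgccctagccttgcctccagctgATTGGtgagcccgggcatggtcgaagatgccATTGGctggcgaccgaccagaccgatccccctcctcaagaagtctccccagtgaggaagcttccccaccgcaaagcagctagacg
Fdps: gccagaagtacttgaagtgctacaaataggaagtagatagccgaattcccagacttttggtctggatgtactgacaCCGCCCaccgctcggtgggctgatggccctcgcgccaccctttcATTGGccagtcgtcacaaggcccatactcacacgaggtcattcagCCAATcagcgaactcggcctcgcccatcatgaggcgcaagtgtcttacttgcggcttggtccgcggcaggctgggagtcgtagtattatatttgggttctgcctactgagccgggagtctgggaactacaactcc

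The sterol element core was found in the Insig1 window alone of the 6, with 2 matches that begin at bases -231 and 14 from the gene start, and 5.8% of 33469 promoter windows held at least 1. Idi1 had 2 NF-Y boxes, which begin at bases -66 and -35, and no match to the other motifs. The NF-Y box was present in 4 of the 6 windows (Fdps, Hmgcs1, Idi1 and Insig1) and in 37.5% of all windows. The Sp1 box was present in 5 of the 6, Idi1 being the exception, and in 33.1% of all windows. In the windows of these 6 genes motif matches overlapped only in Dhcr7, where 2 Sp1 boxes share a base. A match describes letters in these windows, and a window without one says nothing of the factor.

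**Figure D1:**
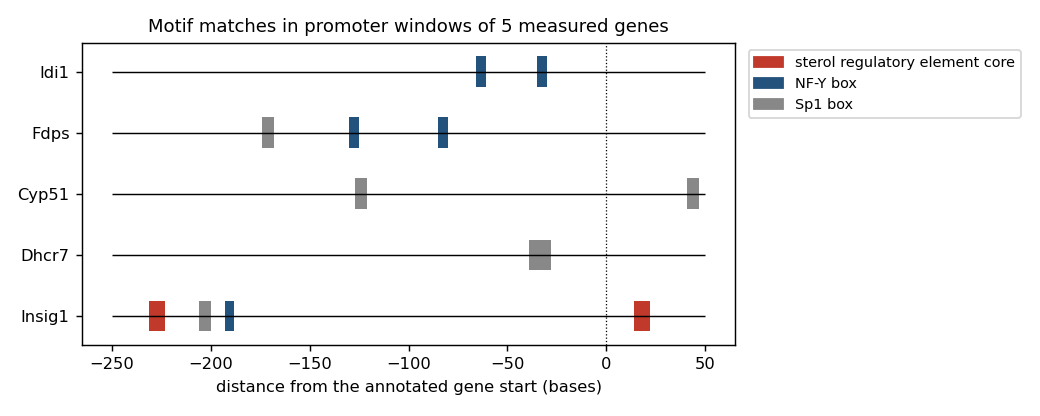
Motif matches (coloured blocks) by distance in bases from the annotated gene start (dotted line) in the promoter windows of 5 genes with a probe set. Insig1 alone holds the sterol regulatory element core, at both ends of its window, and Idi1 holds 2 NF-Y boxes close to the start.

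No sterol gene passed the test in any diet comparison. Insig1 stood 1.30-fold lower in each of the Western plus DHA and Western hearts than in Control hearts. Idi1 stood 1.51-fold higher in Western plus DHA than in Western hearts by its brighter probe set. These separations were larger than the spread between the 2 arrays of each diet, but none held after adjustment over all 31042 probe sets. By the dimmer Idi1 probe set the difference was 1.11-fold, and the 2 diets overlapped. The lowest adjusted p of a sterol probe set in limma was 0.983 for Western plus DHA against Western, 0.562 for Western plus DHA against Control and 1 for Western against Control. Of the 30 differences (10 probe sets in 3 comparisons), 4 had an unadjusted limma p under 0.05. Over all probe sets the share was 4.06% in Western plus DHA against Western. It was 8.87% in Western plus DHA against Control and 2.83% in Western against Control. The members were tested without a filter, and 4 of the 10 probe sets (those of Sqle and Dhcr7 and the dimmer ones of Idi1 and Cyp51) had a mean below the median of all probe sets.

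**Figure D2:**
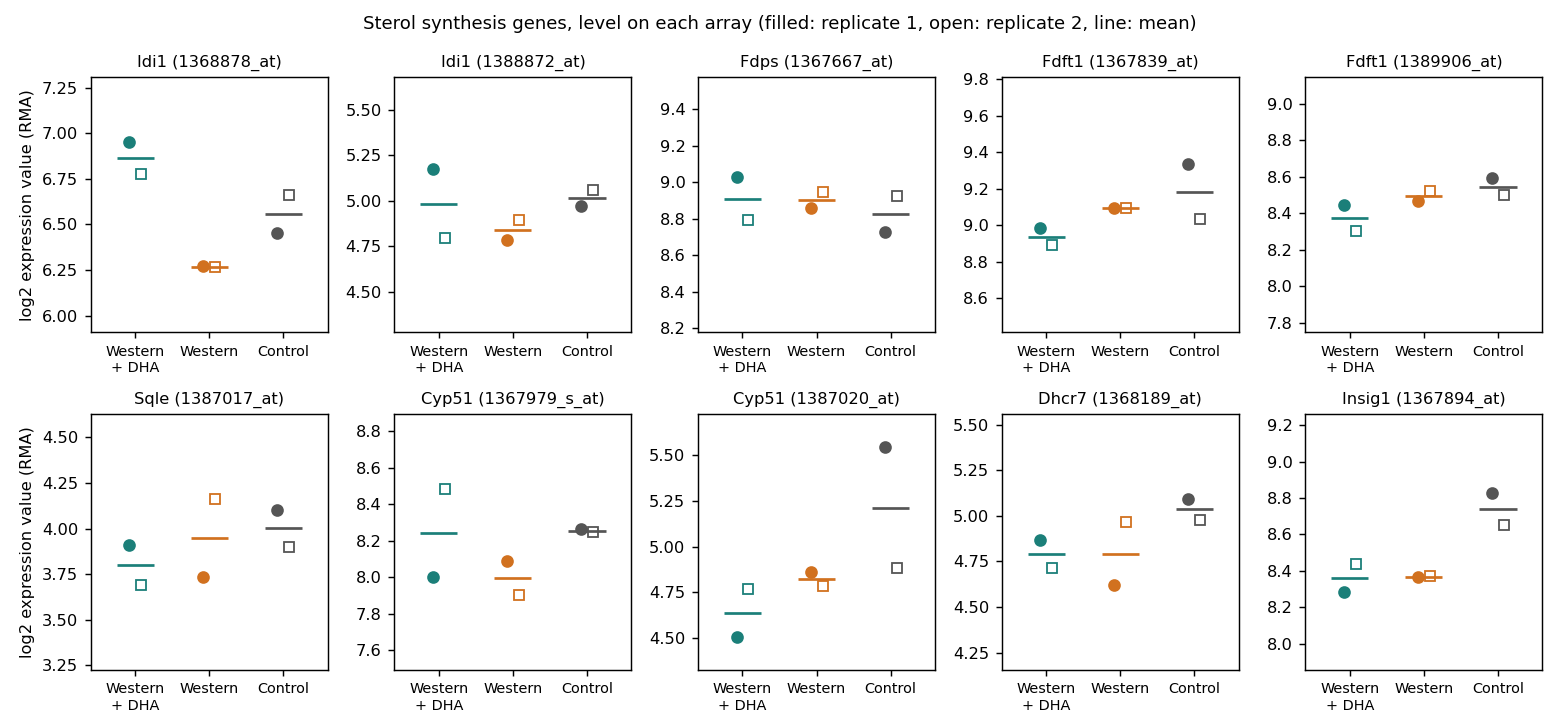
Log2 expression value of each of the 10 sterol probe sets on each array, by diet, with replicate 1 filled, replicate 2 open and a line at the diet mean (2 arrays per diet); the panels have different ranges on the y axis. Both Control arrays of Insig1 lie above the 4 others, and the 3 diets of Idi1 (1368878_at) do not overlap.

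Idi1 encodes isopentenyl-diphosphate isomerase, which turns the isoprenoid unit made from mevalonate into its reactive isomer. Its brighter probe set, 1368878_at, read 6.95 and 6.78 in Western plus DHA, 6.27 and 6.27 in Western, and 6.45 and 6.66 in Control. The diets did not overlap: both Western plus DHA arrays were the highest, both Western arrays the lowest, and the Control arrays lay between them. The means were 6.86 ± 0.12 in Western plus DHA, 6.27 ± 0.0049 in Western and 6.56 ± 0.15 in Control (SD, n = 2 arrays each). The log2 difference of Western plus DHA from Western was 0.60 ± 0.13 (SE), with a 95% interval of 0.29 to 0.90, an unadjusted limma p of 0.00203 and an adjusted limma p of 0.983. This p ranked 31 of 31042 in the comparison. Against Control, Western plus DHA differed by 0.31 ± 0.13 (limma adjusted p = 0.564) and Western by -0.29 ± 0.13 (limma adjusted p = 1). Without Control 1 the Western difference was -0.39, and without Control 2 it was -0.18. Without Control 1 the Western plus DHA difference from Control was 0.20, and without Control 2 it was 0.41.

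The dimmer Idi1 probe set, 1388872_at, did not repeat this order. It read 5.17 and 4.79 in Western plus DHA, 4.78 and 4.89 in Western, and 4.97 and 5.06 in Control. Only the Western and Control arrays were apart, with both Western arrays lower, and the Western plus DHA arrays spanned nearly the whole range. The difference of Western plus DHA from Western was 0.15 ± 0.15 (SE), which became -0.04 when Western plus DHA 1 was left out and 0.34 when Western plus DHA 2 was. Western differed from Control by -0.18 and Western plus DHA differed from Control by -0.03, each with an SE of 0.15. The second of these was -0.22 when Western plus DHA 1 was left out and 0.16 when Western plus DHA 2 was.

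Fdps encodes farnesyl diphosphate synthase, which joins the isoprenoid units into the precursor of squalene and of the lipid tails of prenylated proteins. Its probe set read 9.03 and 8.79 in Western plus DHA, 8.86 and 8.94 in Western, and 8.73 and 8.93 in Control. Every pair of diets overlapped. The difference of Western plus DHA was 0.01 from Western (95% interval -0.31 to 0.33) and 0.08 from Control (-0.24 to 0.41), and Western differed from Control by 0.07 (-0.25 to 0.40). The intervals leave room for differences of up to 0.41, so they do not show equal levels.

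Fdft1 encodes squalene synthase, the first enzyme committed to sterols. Its brighter probe set, 1367839_at, read 8.98 and 8.89 in Western plus DHA, 9.09 and 9.09 in Western, and 9.33 and 9.03 in Control. The second one, 1389906_at, read 8.45 and 8.30 in Western plus DHA, 8.47 and 8.52 in Western, and 8.59 and 8.50 in Control. In both probe sets the Western plus DHA arrays were the 2 lowest of the 6, while Western and Control overlapped. Compared with Control, Western plus DHA differed by -0.25 ± 0.14 in the brighter probe set and by -0.17 ± 0.12 in the second (SE), with adjusted limma p of 0.606 and 0.676. Compared with Western it differed by -0.16 ± 0.14 and by -0.12 ± 0.12, with an adjusted limma p of 0.983 for each. The first Control difference was -0.10 without Control 1 and -0.40 without Control 2. The second was -0.10 without Western plus DHA 2, and its difference from Western was then -0.05 and was -0.19 without Western plus DHA 1.

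Sqle encodes squalene epoxidase, which adds the oxygen from which the sterol rings are closed. Its probe set read 3.91 and 3.69 in Western plus DHA, 3.74 and 4.16 in Western, and 4.10 and 3.90 in Control. All diets overlapped, with Western plus DHA 1 just above Control 2. The difference of Western plus DHA was -0.15 ± 0.17 from Western and -0.20 ± 0.17 from Control, and Western differed from Control by -0.05 ± 0.17 (SE). Each of these moved when 1 array was left out, over -0.36 to 0.06 for Western plus DHA from Western, -0.31 to -0.09 for Western plus DHA from Control and -0.27 to 0.16 for Western from Control. The ends of the first were reached without Western 1 and Western 2, those of the second without Western plus DHA 1 and Western plus DHA 2, and those of the third without Western 2 and Western 1.

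Cyp51 encodes the demethylase that takes the first methyl group off lanosterol. Its 2 probe sets disagreed in the comparisons with Western plus DHA, while both were lower in Western than in Control. The brighter one carries the Affymetrix suffix s_at, given to probe sets that may match more than 1 transcript. It read 8.0 and 8.48 in Western plus DHA, 8.09 and 7.90 in Western, and 8.27 and 8.24 in Control. Both Western arrays were below both Control arrays, while Western plus DHA 2 was the highest array of all and Western plus DHA 1 lay between the Western arrays. The differences were 0.25 ± 0.17 for Western plus DHA from Western, -0.01 ± 0.17 for Western plus DHA from Control and -0.26 ± 0.17 for Western from Control (SE). The first was 0.0049 when Western plus DHA 2 was left out and 0.49 when Western plus DHA 1 was. Western differed from Control by -0.17 without Western 2 and by -0.35 without Western 1.

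The dimmer Cyp51 probe set, 1387020_at, read 4.504 and 4.765 in Western plus DHA, 4.86 and 4.78 in Western, and 5.54 and 4.88 in Control. The diets did not overlap, but Control 1 stood far above the other 5 arrays and Control 2 only just above Western 1. The difference of Western plus DHA from Control was -0.58 ± 0.21 (SE), with an unadjusted limma p of 0.0248 and an adjusted limma p of 0.562. This difference was -0.25 without Control 1 and -0.91 without Control 2. Western differed from Control by -0.39 ± 0.21, which was -0.06 without Control 1 and -0.72 without Control 2. From Western, Western plus DHA differed by -0.19 ± 0.21, which was -0.06 when Western plus DHA 1 was left out and -0.32 when Western plus DHA 2 was.

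Dhcr7 encodes the reductase of the last step to cholesterol. Its probe set read 4.87 and 4.71 in Western plus DHA, 4.62 and 4.96 in Western, and 5.09 and 4.98 in Control. Both Control arrays were above the 4 arrays of the Western diets, Western 2 being just below the lower one. Western plus DHA and Western each differed from Control by -0.24 ± 0.15 (SE), with adjusted limma p of 0.630 and 1. Without Western 1 the Western difference was -0.07, and without Western 2 it was -0.42. Western plus DHA and Western had almost the same mean, with a 95% interval of the difference from -0.35 to 0.35.

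Insig1 encodes the endoplasmic reticulum protein that holds back SCAP and the SREBP proteins. Its probe set read 8.29 and 8.44 in Western plus DHA, 8.36 and 8.37 in Western, and 8.83 and 8.65 in Control. Both Control arrays were above all 4 arrays of the Western diets, and the 2 Western diets overlapped. The means were 8.36 ± 0.11 in Western plus DHA, 8.37 ± 0.0054 in Western and 8.74 ± 0.12 in Control (SD, n = 2 arrays each). The log2 difference of Western plus DHA from Control was -0.38 ± 0.13 (SE), with a 95% interval of -0.68 to -0.08, an unadjusted limma p of 0.0182 and an adjusted limma p of 0.562. Western differed from Control by -0.37 ± 0.13, with an interval of -0.67 to -0.08, an unadjusted limma p of 0.0199 and an adjusted limma p of 1. Leaving out 1 array at a time kept these differences between -0.47 and -0.29 and between -0.46 and -0.29. The Western diets differed from each other by -0.01 (Western plus DHA minus Western), with an interval of -0.30 to 0.29. The comparisons share arrays with one another, so the 2 differences of Insig1 from Control rest on the same 2 Control arrays.

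**Figure D3:**
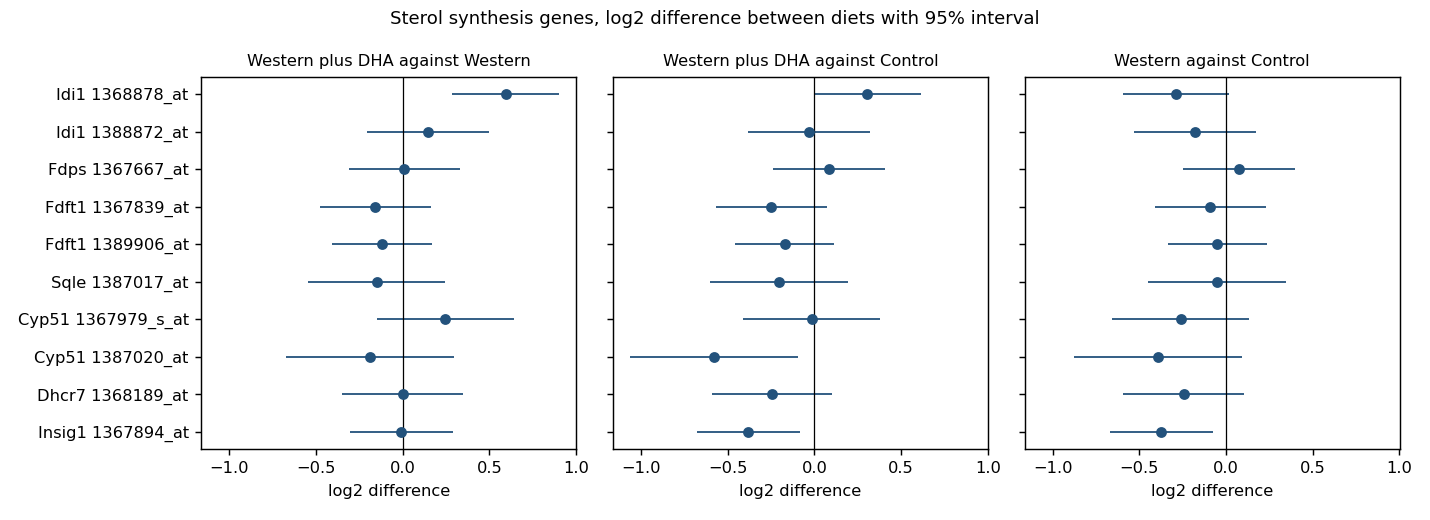
Log2 difference between diets for the 10 sterol probe sets (point) with its 95% interval from limma (line), 1 panel per comparison. The intervals of Insig1 against Control in both Western diets, of Cyp51 1387020_at in Western plus DHA against Control and of Idi1 1368878_at in Western plus DHA against Western leave out 0, and none passed after adjustment.

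The effect of DHA within the Western diet was read from Western plus DHA against Western. Idi1 stood apart upwards in its brighter probe set, and both Fdft1 probe sets and the dimmer Cyp51 probe set stood apart downwards. Thus 1 of 10 probe sets was higher on both arrays, against 19.5% of all probe sets, and 3 of 10 were lower, against 16.0% of all. The test called 0 of 10, as it did over all probe sets (0%), and 1 of 10 (Idi1) had an unadjusted p under 0.05, against 4.06% of all. The median log2 difference of the 7 genes, each by its brighter probe set, was -0.00, against 0.01 over 14217 genes. Of the 7 genes, 4 were below 0, against 46.7% of all genes.

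In Western plus DHA against Control, Insig1, Dhcr7, both Fdft1 probe sets and the dimmer Cyp51 probe set were lower on both arrays. The brighter Idi1 probe set was higher on both. That is 5 of 10 probe sets lower, against 15.1% of all, and 1 of 10 higher, against 22.0% of all. The test called 0 of the 10 and 1 of all probe sets (0.00322%), which was no sterol gene. An unadjusted p under 0.05 was reached by 2 of 10 (Insig1 and Cyp51 1387020_at), against 8.87% of all. The median log2 difference of the 7 genes was -0.20, against 0.03 over all genes, and 5 of 7 genes were below 0, against 43.3% of all. The median was -0.10 without Control 1, and it was -0.01 when dim probe sets, which removes Sqle and Dhcr7, were left out.

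In Western against Control, both arrays were lower for Insig1, Dhcr7, both Idi1 probe sets and both Cyp51 probe sets, and no sterol probe set was higher on both arrays. That is 6 of 10 probe sets lower, against 13.5% of all, and 0 of 10 higher, against 17.5% of all. The test called 0 of the 10 and 0% of all, and 1 of 10 (Insig1) had an unadjusted p under 0.05, against 2.83% of all. The median log2 difference of the 7 genes was -0.24, against 0.01 over all genes, and 6 of 7 genes were below 0, against 47.9% of all. Without Western 1 the median was -0.09. With each array centred on its median the probe sets lower than in Control were 6 of 10 for Western plus DHA and 6 of 10 for Western, against 14.9% and 13.5% of all. Without Control 1 they were 5 and 6 of 10, when 27.9% and 33.0% of all probe sets were lower.

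The arrays differed in how the genes ranked on them. Control 1 was the highest array for 5 of the 10 probe sets, Western plus DHA 1 for 3, and Western plus DHA 2 and Western 2 for 1 each. The mean over the 7 genes of the value minus the gene's own mean was 0.01 and -0.03 in Western plus DHA, -0.13 and -0.04 in Western, and 0.12 and 0.06 in Control. The Control arrays were thus the 2 highest by this mean, and Western 1 was the lowest. In Western plus DHA, the brighter Idi1 probe set was above its mean on both arrays. The brighter Cyp51 probe set was below its mean on replicate 1 and above it on replicate 2. Control 1 was also the array with the largest GAPDH difference between the ends of the transcript, and the part of that in the values was not tested.

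**Figure D4:**
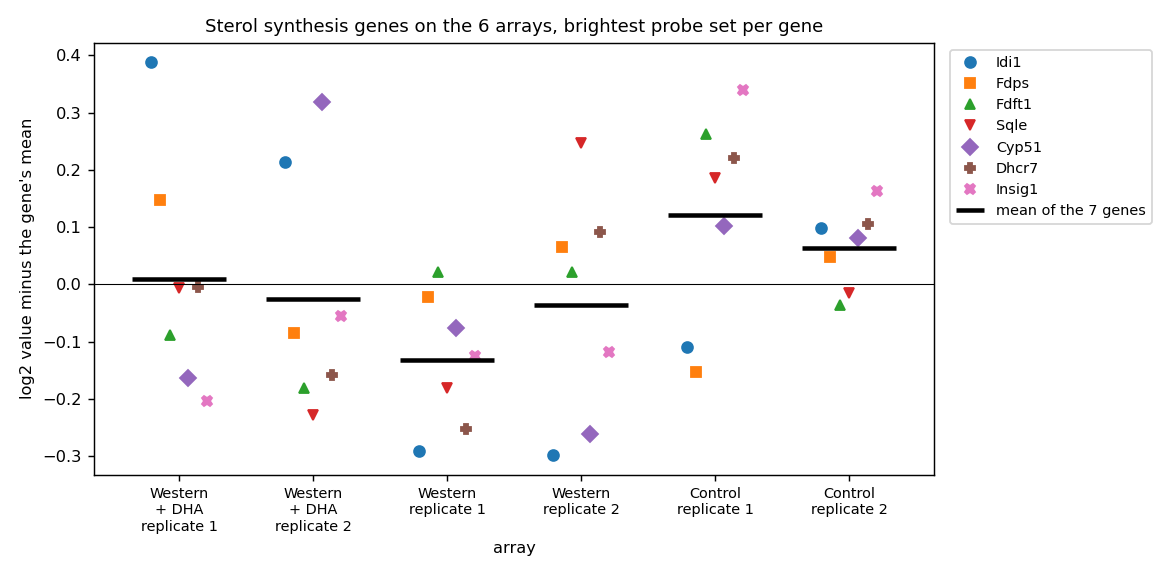
Value of each of the 7 genes on each array minus that gene's mean over the 6 arrays (log2, brighter probe set), with a bar at the mean of the 7 genes. The bar is highest on Control 1 (0.12) and lowest on Western 1 (-0.13), and Idi1 is high on both Western plus DHA arrays and low on both Western arrays.

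The rest of the sterol system was read from 29 other genes with 55 probe sets, in lists of synthesis, SREBP control, uptake and export. The test called 0 of the 55 probe sets in each comparison. By the brightest probe set, 17 of the 29 genes were above 0 in Western plus DHA against Western, 15 in Western plus DHA against Control and 14 in Western against Control. Of all genes, 53.3%, 56.7% and 52.1% were above 0 in the same order. The median log2 differences of the 29 genes were 0.05, 0.00 and -0.00 in the same order, so the negative median of the 7 genes against Control was not seen over these 29.

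Among the 7 other enzymes that form lanosterol or turn it into cholesterol, Msmo1 and Lss had the smallest p in both comparisons with Western plus DHA. Msmo1, the oxidase that removes methyl groups after Cyp51, read 7.38 and 7.39 in Western plus DHA, 7.08 and 6.95 in Western, and 6.94 and 7.08 in Control. Both Western plus DHA arrays were above all others, as for the brighter Idi1 probe set, while Western and Control overlapped. Msmo1 differed by 0.37 ± 0.13 (SE) in Western plus DHA from each of Western and Control, with unadjusted limma p of 0.0182 and 0.0176 and adjusted limma p of 0.983 and 0.562. Lss, which closes the rings to form lanosterol, read 6.19 and 5.77 in Western plus DHA, 6.31 and 6.34 in Western, and 6.44 and 6.60 in Control. Its 3 diets did not overlap, with Western plus DHA lowest and Control highest. Lss differed by -0.54 ± 0.16 in Western plus DHA from Control (limma adjusted p = 0.562), by -0.35 ± 0.16 in Western plus DHA from Western (limma adjusted p = 0.983) and by -0.19 ± 0.16 in Western from Control (limma adjusted p = 1). The second Lss probe set did not repeat this order, and all diets overlapped in it. It differed by -0.08 in Western plus DHA from Control, by -0.14 in Western plus DHA from Western and by 0.06 in Western from Control. Without Western plus DHA 2 the difference of the brighter Lss probe set from Control was -0.33, and its difference from Western was -0.14, against -0.56 without Western plus DHA 1. Its difference of Western from Control was -0.11 without Control 2.

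The 5 other genes between acetyl-CoA and squalene (Acat2, Mvk, Pmvk, Mvd and Ggps1), each by its brightest probe set, differed by -0.24 to 0.11 in Western plus DHA from Western, by -0.23 to 0.16 in Western plus DHA from Control and by -0.13 to 0.16 in Western from Control. Over all their 9 probe sets the ranges were -0.32 to 0.17, -0.23 to 0.34 and -0.13 to 0.51 in the same order, with 0 called. Of the 6 genes of SREBP control, Srebf2 encodes SREBP2 and Scap its escort. Srebf2 read 7.17 and 6.75 in Western plus DHA, 7.08 and 7.23 in Western, and 7.56 and 7.07 in Control. Scap read 7.31 and 6.84 in Western plus DHA, 7.02 and 7.33 in Western, and 7.69 and 7.18 in Control. These are the brighter probe sets of both genes, in which Control 1 was the highest array and Western plus DHA 2 the lowest, and the diets overlapped. The difference of Western plus DHA from Control was -0.35 ± 0.20 in Srebf2 (SE, limma adjusted p = 0.610), a difference that was -0.10 without Control 1 and -0.60 without Control 2. Western differed from Control by -0.26 ± 0.22 in Scap (limma adjusted p = 1), which was -0.0033 without Control 1 and -0.52 without Control 2. The brighter probe set of Insig2, the second INSIG gene, read 8.84 and 9.05 in Western plus DHA, 8.76 and 8.86 in Western, and 8.74 and 8.95 in Control. All diets overlapped in it. The second Insig2 probe set, 1393690_at, read 8.05 and 8.11 in Western plus DHA, 8.18 and 8.31 in Western, and 7.91 and 8.27 in Control. There Western plus DHA was below Western on both arrays, and Control overlapped with each. Western plus DHA differed from Western by 0.14 in the brighter probe set and by -0.17 in the second.

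The 7 genes of lipoprotein uptake and lysosomal export, each by its brightest probe set, differed by -0.27 to 0.21 in Western plus DHA from Western, by -0.30 to 0.18 in Western plus DHA from Control and by -0.05 to 0.13 in Western from Control. Over all their 14 probe sets the ranges were -0.38 to 0.21, -0.44 to 0.31 and -0.16 to 0.16, with 0 called. Vldlr, a receptor for triglyceride-rich lipoproteins, read 9.91 and 10.2 in Western plus DHA, 10.0 and 9.98 in Western, and 9.91 and 10.1 in Control. Mylip, which sends lipoprotein receptors for degradation, read 8.11 and 7.94 in Western plus DHA, 7.80 and 7.84 in Western, and 7.81 and 7.88 in Control. Vldlr overlapped between all diets, while both Western plus DHA arrays of Mylip were the 2 highest, 0.21 ± 0.13 above Western and 0.18 ± 0.13 above Control (SE, limma adjusted p = 0.983 and 0.666).

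Of the 4 genes of esterification and export, Abca1, which exports cholesterol from cells, differed most between diets. Its brightest probe set, 1382431_at, read 7.07 and 7.22 in Western plus DHA, 6.35 and 5.85 in Western, and 6.94 and 6.80 in Control. Both Western arrays were below the 4 others, and the Western plus DHA arrays were above both Control arrays. Western plus DHA differed from Western by 1.05 ± 0.18 (SE, limma adjusted p = 0.983) and Western differed from Control by -0.77 ± 0.18 (limma adjusted p = 1). Of the 3 other Abca1 probe sets, 1394490_at differed by 0.79 and -0.76, 1384381_at by 0.40 and -0.34 and 1383355_at by 0.11 and -0.02 in these 2 comparisons. Idi1 1368878_at and Abca1 1382431_at thus had the same order of diets, with Western lowest, though neither passed the test. The 3 probe sets of Abcg1 differed by -0.26, 0.34 and -0.14 in Western from Control. Over all 10 probe sets of the 4 genes, Western plus DHA differed by -0.06 to 1.05 from Western and by -0.03 to 0.39 from Control. Western differed from Control by -0.77 to 0.34, and 0 were called.

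**Figure D5:**
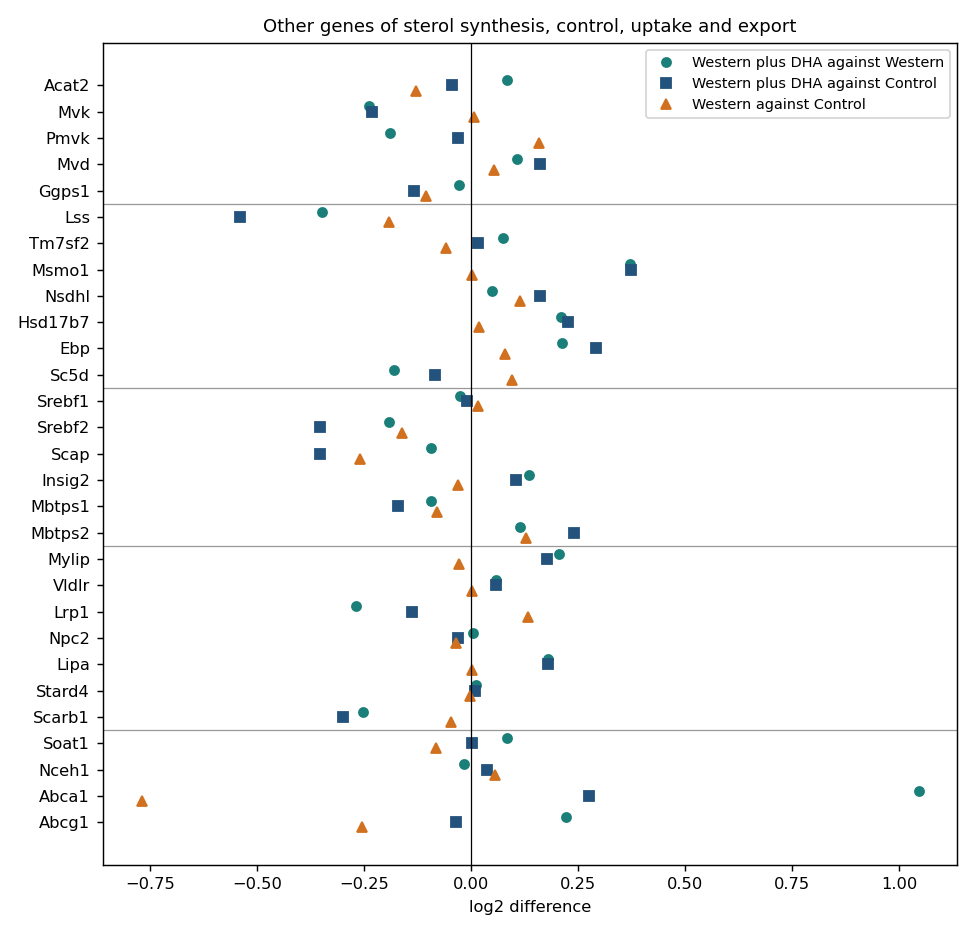
Log2 difference between diets (x axis) for the 29 other sterol genes (y axis, brightest probe set), with a symbol for each comparison and lines between the lists of synthesis to squalene, lanosterol to cholesterol, SREBP control, uptake and lysosomal export, and esterification and export. All other points lie between -0.54 and 0.37, and Abca1 lies furthest out, at 1.05 in Western plus DHA against Western and -0.77 in Western against Control.

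The genes whose pattern over the 6 arrays was nearest to the mean profile of the 7 sterol genes were Zfp157, Rexo2, Dmac2, Kif2a and Mrpl43. Nearness was the root mean square log2 difference from the profile, which was 0.030, 0.030, 0.036, 0.038 and 0.039 for these genes. The candidates were 10190 probe sets that had 1 symbol and were not members. They also had a mean at or above the median of all probe sets and an SD at least that of the profile, so dimmer or flatter probe sets were not searched. The profile itself had an SD of only 0.087 over the arrays.

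The array means of some cell type marker lists were also apart between diets, but no list was tested. For scale, 17.5% of all single probe sets were higher and 13.5% lower on both arrays in Western against Control. RMA values have no true 0, so the lists are given by their mean log2 values. The 8 hepatocyte markers read 4.63 and 4.70 in Western plus DHA, 4.56 and 4.49 in Western, and 4.47 and 4.48 in Control, and only 2 of the 8 lay above the median of all probe sets. The 7 measured of 8 adipocyte markers read 6.38 and 6.44 in Western plus DHA, 6.68 and 6.69 in Western, and 6.23 and 6.26 in Control, with 3 of the 7 above that median. The adipocyte markers were thus highest in Western, where the brighter Idi1 probe set was lowest. The orders were otherwise not opposite, since Control was lowest in the adipocyte list and lay between the other diets in Idi1. The mean levels of the measured adipocyte markers ran from 3.11 to 13.0. The 5 neutrophil markers read 4.19 and 4.18 in Western plus DHA, 4.196 and 4.30 in Western, and 3.76 and 3.94 in Control, with 1 of the 5 above the median. The 5 erythroid markers read 8.43 and 8.52 in Western plus DHA, 8.26 and 8.31 in Western, and 8.10 and 8.05 in Control, with 4 of the 5 above the median. In all 4 lists the Western diets were above Control on every array, and Insig1 was below Control on every array. The endothelial list was apart between Western, at 9.22 and 9.27, and Control, at 9.10 and 9.09, and the epicardial list between Western plus DHA, at 5.62 and 5.37, and both other diets, whose highest array was 5.21. The cardiomyocyte list read 13.511 and 13.519 in Western plus DHA, below both 13.552 and 13.559 in Western and 13.545 and 13.556 in Control. The macrophage and fibroblast lists overlapped between all diets. In both, Western plus DHA 1 and Control 1 were the highest arrays. They read 7.66 and 7.39 in the macrophage list, against at most 7.22 elsewhere. In the fibroblast list they read 10.80 and 10.86, against at most 10.56 elsewhere. The part of these cells in the sterol values was not tested. In such bulk tissue, fewer cells of a type and less RNA per cell cannot be told apart.

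The authors' deposited table gives the same log2 differences for the 10 probe sets to within 5e-10, and 0 of the 10 are in the authors' deposited list of 66 probe sets.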

How the data were processed

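The authors deposited log2 values of 31099 probe sets, for which the submitters' processing notes name RMA and R 2.11.0, and a table of log2 differences with p-values whose test no source here states. Pools of 5 rats gave 2 arrays for each of 3 diets, and 5 µg of total RNA went into each labelling, per the labels' protocols. RMA removes differences in total RNA between arrays. The 57 Affymetrix control probe sets were not tested. Gene symbols are those of the platform annotation, brought up to date with RefSeq: 20826 tested probe sets had 1 symbol, 436 several and 9780 none.

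A model with 1 mean per diet was fitted to all 6 arrays with limma 3.58.1 in R 4.3.3 (3 residual and 5.28 prior degrees of freedom). P-values were adjusted over 31042 probe sets by the Benjamini-Hochberg method, with a threshold of 0.05, and measure the spread between pools, not rats. The steps were tested on simulated data.

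The members, gene lists, motifs and naming rules were chosen with earlier results of these data known. All member probe sets were named, with the 3 other pathway genes of smallest p per comparison, regulators and uptake genes by their array values, and the 5 genes nearest the mean profile. Alternatives were the removal of dim probe sets, median centring, cyclic loess, array weights, an intensity trend, fits of 4 arrays, a replicate block, averaging the probe sets of each gene, the authors' deposited table, and leaving out arrays.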

Additional observations from a re-analysis of the deposited data

How the results depend on the processing

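Of 438 alternative values of the 30 member differences, 228 equal the reported one, because settings that alter only the spread or the set tested, the authors' deposited table and arrays of the third diet leave a difference as it is. Of the 210 that could move, 25 changed sign, and 18 of the 30 differences kept their sign throughout. No value passed the test, and the lowest adjusted p in limma was 0.116, for Cyp51 1387020_at in Western plus DHA against Control without Control 2. The number of sterol probe sets called was 0 under each alternative in each comparison. Over all probe sets, the 1 call in Western plus DHA against Control became 0 with only the 4 arrays compared and 0 with Control 1 and Western plus DHA 2 both left out, and 0 to 2 when 1 array was left out. In Western plus DHA against Western the 0 calls became 1 with median centring, 1 with array weights and 1 with an intensity trend. The cause of these changes was not tested. The median log2 difference of the 7 genes in Western plus DHA against Control was -0.015 with probe sets below the median level removed, which leaves 5 of the genes, and -0.053 with Control 1 and Western plus DHA 2 both left out. When 1 array was left out it ranged from -0.30 to -0.099 in Western plus DHA against Control, from -0.27 to -0.092 in Western against Control and from -0.078 to 0.063 in Western plus DHA against Western. Where this leaves 1 array in a diet, that array is assumed to vary like the others. The counts of sterol probe sets lower on all arrays, whose alternatives were chosen after seeing the data, ranged from 5 to 7 in Western plus DHA against Control and from 6 to 8 in Western against Control. The 7 and 8 came from leaving out an array of the diets compared, which leaves fewer arrays to separate: 31.2% of all probe sets were then lower for the 7, and 33.7% and 27.5% for the 8. A replicate block cannot change a difference in this balanced design. With it 0 sterol probe sets were called, with lowest adjusted p in limma of 0.999, 0.608 and 1 in Western plus DHA against Western, Western plus DHA against Control and Western against Control, and 1 probe set in all was called in Western plus DHA against Control. Arrays of the same number deviated together with r of -0.23, 0.20 and -0.21 across probe sets in Western plus DHA with Western, Western plus DHA with Control and Western with Control, and nothing in the labels ties the numbers together, so they were not taken as pairs. With 2 pools per diet the precision is set by the number of arrays.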
